A study of Gossypium hirsutum with 9 samples.

Results

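Ovules of the cotton lines XinWX and XinFLM on the day before anthesis (-1 days post anthesis, DPA) were compared on 3 dual-dye arrays, which were chosen by their titles among the 9 arrays of the series. XinWX is a lintless-fuzzless mutant of Gossypium hirsutum. XinFLM, a dominant mutant isolated from XinWX, bears lint but no fuzz, and by the study's account the lines differ at a single locus for lint. Both lines therefore lack fuzz, and neither is a wild type. Each array carried XinWX and XinFLM ovules of the same stage, with XinWX in Cy3 and XinFLM in Cy5 on replicates 1 and 3 and the dyes interchanged on replicate 2. The remaining 6 arrays compare the same lines at 0 and 1 DPA and serve for comparison with -1 DPA. They also entered the fit, so that the spread behind each p-value at -1 DPA was estimated from all 9 arrays.

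A cotton fiber is a single epidermal cell of the ovule that bulges out of the seed surface around anthesis. Some of these cells become long lint and others short fuzz, and their fate is thought to be set before the bulge can be seen. Jasmonic acid (JA) is a plant hormone made from membrane fatty acids by lipoxygenase, allene oxide synthase, allene oxide cyclase and 12-oxophytodienoate reductase in turn, and GH3 enzymes join such hormones to amino acids.

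The plants were grown in the field, the samples were mixtures of ovule and fiber cells, and the RNA was amplified before labeling. In samples of many cell types, fewer cells of a type and less RNA per cell cannot be told apart. In the methods 2 replicates are biological and a dye swap comes on top, whereas the labels speak of 3 replicates, so that p-values and standard deviations (SD) over the arrays may measure technical spread in part. Only the 18 probes with a gene name in the study could be described by function. The tissue could not be checked against marker genes, because no gene names for further probes were used here.

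The first 2 arrays were brighter than the third. The median background-subtracted intensity was 1577, 1568.5 and 922.25 units in XinWX and 1506.75, 1447 and 930 units in XinFLM on replicates 1, 2 and 3. Spots with under 400 units in both channels, which were left out, made up 19.5%, 18.2% and 26.7% of the probe spots. No blank spot reached 400 units in either channel on any of the 3 arrays. A probe was tested when it was kept on at least 2 of the 3 arrays, which held for 23170 probes, and was called a differentially expressed gene (DEG) when the lines differed at least 2-fold with a false discovery rate (FDR) under 0.05. The intensities given below for single arrays are normalized units.

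At -1 DPA 769 probes were DEGs, or 3.32% of those tested. XinWX was the higher line for 482 of them (2.08%) and XinFLM for 287 (1.24%), so that the DEGs on the side of XinWX were the more numerous. The DEGs higher in XinWX had a median difference of 2.43-fold and those higher in XinFLM of 2.28-fold. A difference of at least 4-fold was reached by 37 probes higher in XinWX, which is 7.68% of them, and by 3 probes higher in XinFLM, or 1.05%. Most of the differences in either direction were therefore between 2 and 3-fold. Over all probes tested the median log2 ratio of XinWX over XinFLM was -0.0043, and 5741 probes (24.8%) passed the FDR alone, 2993 on the side of XinWX and 2748 on that of XinFLM. Near the 2-fold limit, within 0.05 on the log2 scale, lay 98 probes inside and 135 outside that had passed the FDR.

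**Figure D1:**
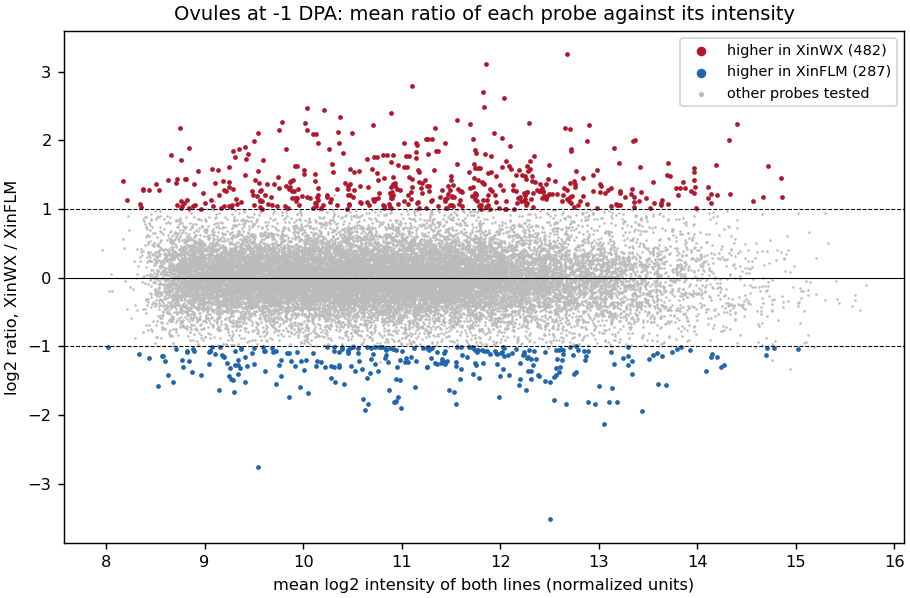
Mean log2 ratio of XinWX over XinFLM at -1 DPA (vertical axis) of each of the 23170 probes tested, against the mean log2 intensity of both lines in normalized units (horizontal axis), with the 2-fold limits dashed. Of the 482 DEGs higher in XinWX 37 reach 4-fold, and of the 287 higher in XinFLM 3 do, among them the largest ratio of all at 11.5-fold.

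DEGs were found at all intensities. When the probes were divided by intensity into 5 equal parts, in the brightest part 3.32% were higher in XinWX and 1.92% higher in XinFLM, against 1.55% and 1.10% in the faintest part. The median normalized intensity of the DEGs higher in XinWX was 4150 units in XinWX and 1500 units in XinFLM. For those higher in XinFLM it was 1560 units in XinWX and 3650 units in XinFLM. Over all probes tested it was 1770 units in XinWX and 1760 units in XinFLM. In both groups of DEGs the dimmer line was thus near the median of all probes, and the brighter line was above it.

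The direction of a DEG was nearly always the same on each array. Of 459 DEGs higher in XinWX that were kept on all 3 arrays, 458 had the same sign on each, as did all 274 of those higher in XinFLM. Over all probes kept on 3 arrays this held for 12836 of 20952, or 61.3%. These shares describe the calls and are no test of them, since the same arrays gave the calls. The ratio was at least 2-fold on each array for 305 DEGs higher in XinWX and 125 higher in XinFLM. The median log2 ratios of the DEGs higher in XinWX were 1.27, 1.29 and 1.38 on replicates 1, 2 and 3, and those of the DEGs higher in XinFLM were -1.12, -1.13 and -1.41. Replicate 3, the dimmest array, gave the largest ratios on both sides. Across all probes, which are not independent, its log2 ratios differed from those of replicate 1 by a median of 0.267, whereas replicates 1 and 2 differed by a median of 0.119.

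**Figure D2:**
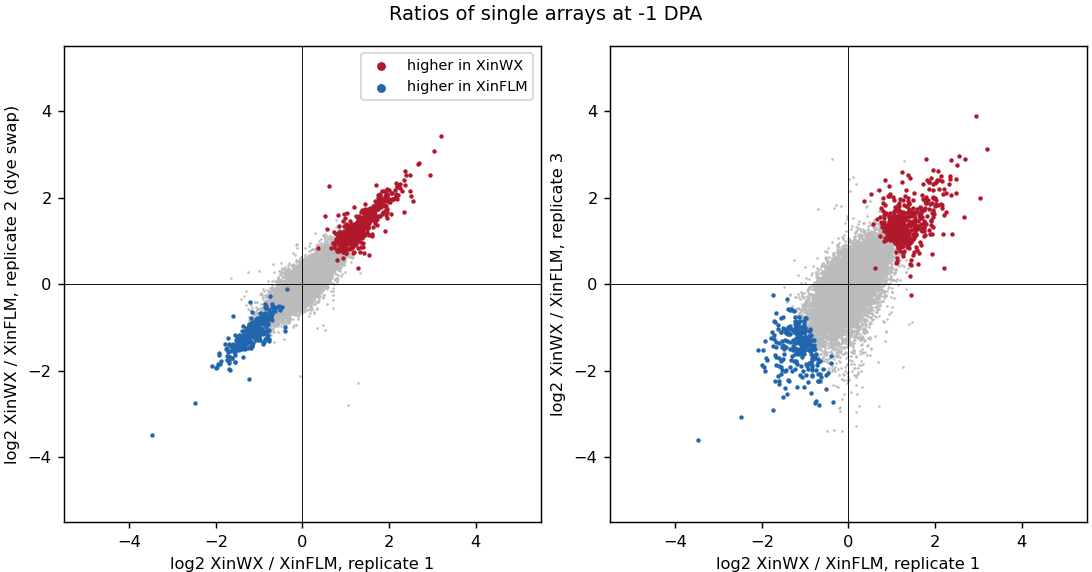
Log2 ratios of XinWX over XinFLM on single arrays at -1 DPA, with replicate 1 on the horizontal axes and replicate 2 (the dye swap, left) or replicate 3 (right) on the vertical axes, and other probes in grey. Replicates 1 and 2 lie close to a line although their dyes were interchanged, and replicate 3 scatters more.

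For some DEGs only the higher line gave a measurable signal. In XinWX 27 of the DEGs had at least 400 units on all 3 arrays while XinFLM was under 400 units on all 3, and in XinFLM 12 had this pattern in the opposite sense. Fold changes of such probes are lower bounds. The mean of the brighter line was set, on each array, against the dim line's own normalized value or, where higher, the lowest normalized value among probes that reached 400 units in the same channel. By this bound 11 of the 27 probes were at least 2-fold higher in XinWX, and 3 of the 12 were at least 2-fold higher in XinFLM. The highest bounds were 3.41-fold on the side of XinWX and 4.88-fold on the side of XinFLM. In all, XinFLM was under 400 units on every array for 38 of the 482 DEGs higher in XinWX, and XinWX for 23 of the 287 higher in XinFLM, so that most ratios rested on signals measured in both lines.

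The largest differences belonged to probes with no gene name here. Probe 28K_157_E12 had 20900, 21000 and 18900 units in XinWX on replicates 1, 2 and 3, against 2250, 1970 and 2160 units in XinFLM, and was 9.51-fold higher in XinWX (log2 3.25, SD 0.15, adjusted p = 8.155e-08 in limma, n = 3 arrays). Probe 28K_256_D01 had 10900, 7330 and 16300 units in XinWX, against 1420, 1280 and 1100 units in XinFLM, and was 8.67-fold higher in XinWX (log2 3.12, SD 0.70, adjusted p = 1.791e-06). For both probes the lowest XinWX value was several times the highest XinFLM value. In the opposite direction 28K_094_F09 had 1530, 1700 and 1950 units in XinWX, against 17100, 18900 and 23600 units in XinFLM, and was 11.5-fold higher in XinFLM (log2 -3.52, SD 0.07, adjusted p = 4.66e-09). Its log2 ratios of -3.48, -3.48 and -3.60 were close to each other, also on the swapped array. Probe 28K_141_F07 was under 400 background-subtracted units in XinWX on every array and had 1530, 2040 and 2320 normalized units in XinFLM, which made it at least 4.88-fold higher in XinFLM (adjusted p = 1.048e-06). With the spread taken from the 3 arrays of -1 DPA alone the adjusted p-values of these probes were larger, at 0.000758 for 28K_157_E12, 0.00167 for 28K_256_D01, 0.000542 for 28K_094_F09 and 0.000859 for 28K_141_F07, and each stayed a DEG.

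Of the 18 probes with a gene name, all were tested, with 5 called higher in XinWX (2.08% of all probes were), 3 called higher in XinFLM (1.24% of all) and 10 not called. Their median log2 ratio was 0.25, against -0.0043 over all probes. The study chose these probes on the same samples, some for their difference between the lines and others for the lack of one, so that these counts are no independent evidence of a direction. Without the fold limit 13 of them passed the FDR, 8 higher in XinWX and 5 higher in XinFLM, where 24.8% of all probes passed it.

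**Figure D3:**
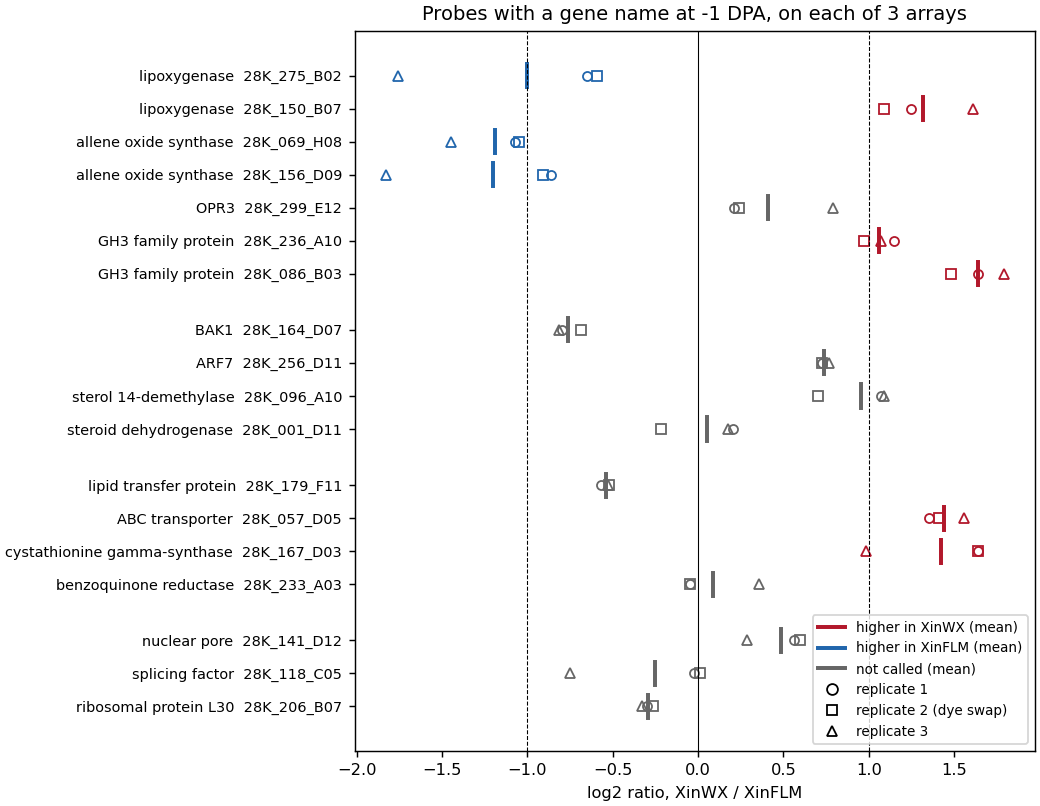
Log2 ratios of XinWX over XinFLM at -1 DPA for the 18 probes with a gene name, on each of the 3 arrays (symbols) and as their mean (bars), with the 2-fold limits dashed. Both allene oxide synthase probes lie on the side of XinFLM and both GH3 probes on the side of XinWX, and the lipoxygenase probes lie on opposite sides.

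Among the 7 probes of JA synthesis and conjugation, 3 were DEGs on the side of XinWX, 3 on the side of XinFLM and 1 was not called (over all probes 2.08% and 1.24% were DEGs on these sides), with a median log2 ratio of 0.41. The study describes all 7 as differing between the lines on its arrays, without giving the stage or the direction there. Both allene oxide synthase probes were higher in XinFLM and both GH3 probes in XinWX, and the lipoxygenase probes lay on opposite sides. For the allene oxide synthase probes and the lipoxygenase probe higher in XinFLM the study gives the opposite direction, from quantitative PCR and not from the arrays. The direction here follows from the dyes in the labels. By the same PCR the study reports the reductase probe as significantly higher in XinWX, above all on the day before anthesis. For the GH3 probe with the larger ratio here, it reports a significant difference for the day after anthesis instead. On the arrays of -1 DPA the reductase probe 28K_299_E12 was not called (adjusted p = 0.133 in limma). GH3 probe 28K_086_B03 was 3.11-fold higher in XinWX at this stage (adjusted p = 3.878e-06). Allene oxide cyclase was not analysed here.

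Lipoxygenase oxygenates the fatty acid precursor at the start of JA synthesis. Probe 28K_150_B07 had 2580, 2630 and 2470 units in XinWX, against 1090, 1240 and 809 units in XinFLM, and was 2.49-fold higher in XinWX (log2 1.32, standard error 0.20, adjusted p = 0.000412). The values of the lines did not overlap. Probe 28K_275_B02 had 7750, 6250 and 2480 units in XinWX, against 12100, 9410 and 8400 units in XinFLM, and was 2.00-fold higher in XinFLM (log2 -1.00, standard error 0.19, adjusted p = 0.00174). For this probe too the values of the lines did not overlap. Its difference lay on the fold limit and was set by replicate 3, with log2 ratios of -0.65, -0.59 and -1.76. It was under 2-fold without replicate 3 (log2 -0.62, adjusted p = 0.0106) and in 8 of 19 alternative settings in all. With the 3 arrays of -1 DPA alone its adjusted p was 0.0310.

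Allene oxide synthase turns the lipoxygenase product into an unstable epoxide. Probe 28K_069_H08 had 3700, 2680 and 3830 units in XinWX, against 7770, 5540 and 10400 units in XinFLM, and was 2.28-fold higher in XinFLM (log2 -1.19, standard error 0.17, adjusted p = 0.000284). Probe 28K_156_D09 had 5510, 5870 and 2270 units in XinWX, against 9990, 11000 and 8090 units in XinFLM, and was 2.30-fold higher in XinFLM (log2 -1.20, standard error 0.19, adjusted p = 0.000485). XinFLM was above XinWX on each array in both probes with no overlap, and in the second the difference was largest on replicate 3. Without that array the log2 ratio of 28K_156_D09 was -0.88 (adjusted p = 0.00478), under the fold limit.

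OPR3, 12-oxophytodienoate reductase 3, acts in the last steps of JA synthesis. Its probe 28K_299_E12 had 1980, 1320 and 2710 units in XinWX, against 1710, 1120 and 1570 units in XinFLM, a log2 ratio of 0.41 (standard error 0.19, adjusted p = 0.133). XinWX was above XinFLM on each array, but the difference did not pass the test. Over 19 alternative settings its adjusted p ranged from 0.0418 to 0.532, and it was called in none of them. The gene names of this probe and of lipoxygenase probe 28K_150_B07 come with a particularity in the study's list of primers for quantitative PCR, in which the forward and the reverse primers of the probes share 17 bases each. The sequences are shown because they tie the names of an enzyme at the start and one near the end of the pathway to each other, with the shared run in capitals.
28K_150_B07 forward: CTCGGACTACTTACCATttc
28K_299_E12 forward: gCTCGGACTACTTACCAT
28K_150_B07 reverse: TCACCTGCTCAGATGTAa
28K_299_E12 reverse: cTCACCTGCTCAGATGTA
No other of the 253 pairs among the 23 listed targets shared a run of more than 6 bases at both ends. Primers listed for a lipoxygenase and for an OPR3 thus share nearly all of their bases, whereas on the array their probes had log2 ratios of 1.32 and 0.41. The sequences of the probes themselves were not used here, and which of the names fits either probe was not tested.

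GH3 proteins join jasmonate or auxin to amino acids and in this way set the amount of active hormone. Probe 28K_086_B03 had 10300, 11000 and 9470 units in XinWX, against 3310, 3930 and 2740 units in XinFLM, and was 3.11-fold higher in XinWX (log2 1.64, standard error 0.14, adjusted p = 3.878e-06). Probe 28K_236_A10 had 2430, 2070 and 1730 units in XinWX, against 1100, 1050 and 824 units in XinFLM, and was 2.09-fold higher in XinWX (log2 1.06, standard error 0.18, adjusted p = 0.000758). Both probes were higher in XinWX on all 3 arrays with no overlap. The first had the largest ratio among the 18 named probes, and the second fell just under 2-fold with no background correction (log2 0.98) and with scaling between arrays (log2 0.998).

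The 4 probes of other hormone and sterol genes were not called, although 3 of them passed the FDR at a smaller fold (24.8% of all probes passed the FDR). Sterol 14-demethylase 28K_096_A10, a cytochrome P450 of sterol synthesis, had 6080, 5000 and 3710 units in XinWX, against 2890, 3070 and 1740 units in XinFLM, and its ratio of 1.94-fold (log2 0.96, standard error 0.13, adjusted p = 0.000174) stayed just under the fold limit. XinWX was above XinFLM on each array, and without replicate 2 the probe was called (log2 1.08). The auxin response factor ARF7 (28K_256_D11), a transcription factor, was 1.67-fold higher in XinWX (log2 0.74, SD 0.02, adjusted p = 0.000638), with log2 ratios of 0.72, 0.73 and 0.77 on the arrays. BAK1 (28K_164_D07), the kinase that pairs with the brassinosteroid receptor, was 1.70-fold higher in XinFLM (log2 -0.76, SD 0.07, adjusted p = 0.0104), with log2 ratios of -0.80, -0.69 and -0.81. The differences of these receptor and factor genes were thus small but of similar size on every array. The steroid dehydrogenase 28K_001_D11, which the study took as not differing, had a log2 ratio of 0.05 (SD 0.23, adjusted p = 0.848) and differed in sign between arrays.

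Among the 4 probes of transport and metabolism, 2 were called higher in XinWX (2.08% of all probes were) and none higher in XinFLM (1.24% of all). These probes too were chosen by the study on the same samples, so that the counts give no direction for such genes. The ABC transporter 28K_057_D05, of a family that moves substrates across membranes with ATP, had 3580, 3620 and 3610 units in XinWX, against 1400, 1370 and 1220 units in XinFLM, and was 2.71-fold higher in XinWX (log2 1.44, standard error 0.11, adjusted p = 2.236e-06). Cystathionine gamma-synthase 28K_167_D03, which leads sulfur from cysteine into methionine synthesis, had 24700, 28400 and 25600 units in XinWX, against 7930, 9120 and 12900 units in XinFLM, and was 2.68-fold higher in XinWX (log2 1.42, standard error 0.20, adjusted p = 0.000196). For both genes the lines did not overlap. The lipid transfer protein 28K_179_F11, whose relatives shuttle lipids to membranes and cuticle, had 4320, 3630 and 6460 units in XinWX, against 6390, 5200 and 9300 units in XinFLM. It was 1.45-fold higher in XinFLM (log2 -0.54, SD 0.03, adjusted p = 0.00814), under the fold limit and of similar size on all 3 arrays. The adjusted p of this probe ranged from 0.00412 to 0.0744 over 19 alternative settings. Benzoquinone reductase 28K_233_A03, a quinone-reducing enzyme, had 2130, 2410 and 2080 units in XinWX, against 2200, 2490 and 1620 units in XinFLM, a log2 ratio of 0.09 (SD 0.23, adjusted p = 0.684).

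The remaining 3 named probes were among those the study took as not differing, and none was called. The nuclear pore protein 28K_141_D12 had a log2 ratio of 0.48 (SD 0.17) and passed the FDR at 1.40-fold (adjusted p = 0.0101), but not without replicate 1 (adjusted p = 0.0837) or replicate 2 (0.0863), nor with replicate 1 and the swap averaged (0.13). The splicing factor 28K_118_C05 had a log2 ratio of -0.25 (adjusted p = 0.234), with -0.02, 0.01 and -0.75 on the arrays, so that its mean came from replicate 3. Ribosomal protein L30 28K_206_B07 had a log2 ratio of -0.30 (adjusted p = 0.0993).

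The DEGs of -1 DPA were followed to 0 and 1 DPA, where 440 of those higher in XinWX and 254 of those higher in XinFLM were also tested. For the DEGs higher in XinWX at -1 DPA the median log2 ratio was 1.27 at -1 DPA, 0.39 at 0 DPA and 0.69 at 1 DPA. For those higher in XinFLM it was -1.19 at -1 DPA, -0.31 at 0 DPA and -0.42 at 1 DPA. Since the probes were chosen for their ratio at -1 DPA, the choice itself favours smaller ratios at other stages, and the decrease is only described. The medians of both groups kept their direction at both later stages, and both were smallest on the day of anthesis. A ratio under 2-fold at both later stages was found for 286 of the 440 probes and for 197 of the 254. The sign was opposite at 0 DPA for 54 and 37 of these probes, and at 1 DPA for 73 and 58.

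The levels in each line differed in how they moved. Among the 482 DEGs higher in XinWX at -1 DPA, the median normalized intensity in XinWX was 4150 units at -1 DPA, 3120 at 0 DPA and 2730 at 1 DPA, and in XinFLM it was 1500, 2240 and 1570 units at the same stages. Among the 287 DEGs higher in XinFLM it was 1560, 1780 and 1640 units in XinWX, and 3650, 2290 and 2380 units in XinFLM. In each group the line that was brighter at -1 DPA had lower medians at the later stages, and the other line had its highest median at 0 DPA. For XinWX in the second group this was not clear by array. Its single-array medians were 1610 to 1740 units at 0 DPA and 1660 to 1740 units at 1 DPA. These medians are a description of probes chosen at -1 DPA and were not tested.

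**Figure D4:**
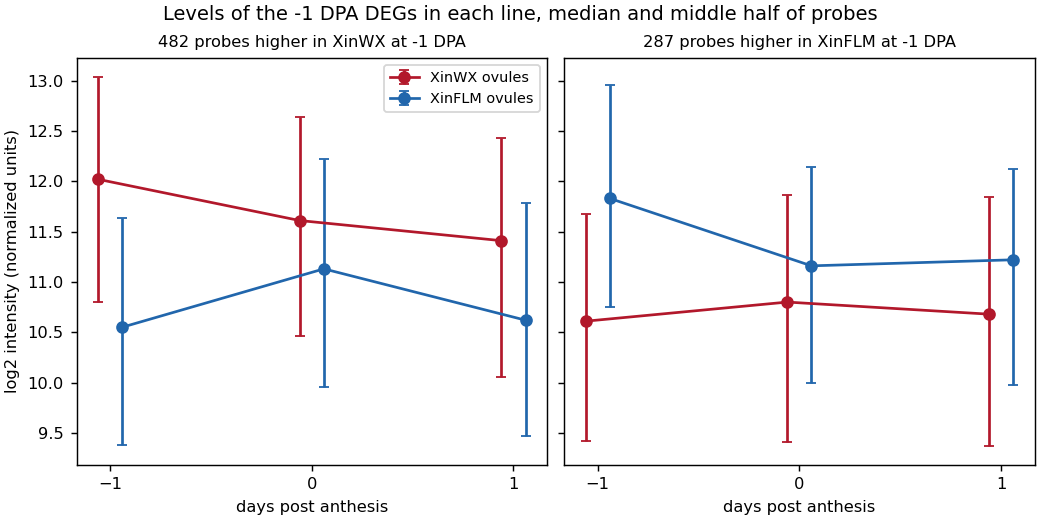
Median log2 intensity in normalized units of the 482 DEGs higher in XinWX (left) and the 287 higher in XinFLM (right) at -1 DPA, in each line at each of the 3 stages, with bars from the lower to the upper quartile of probes. The lines are farthest apart at -1 DPA, where the probes were chosen, and closest at 0 DPA.

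Whether the ratio at -1 DPA differed from the mean ratio at 0 and 1 DPA was tested for all 20873 probes measured at every stage, and it did for 1994 of them (9.55%) at an FDR under 0.05. Of these, 1223 were shifted toward XinWX at -1 DPA and 771 toward XinFLM. The ratio at -1 DPA was farther from 0 than the mean of the 0 and 1 DPA ratios for 1417 of the 1994 probes (71.1%). Averaging the later stages itself draws their value toward 0, so that this share is only described. That mean, though not always each later stage, had the opposite sign for 1058. Most of the probes with a different ratio were not DEGs at -1 DPA, as only 452 of them were. Among the DEGs tested at every stage the ratios differed for 295 of 440 higher in XinWX (67%) and for 157 of 254 higher in XinFLM (61.8%), counts that the choice of DEGs by the same ratio favours. The count was lower when 1 array was left out, with 1113 probes without replicate 1 of -1 DPA and 1193 without replicate 2. It was 687 when replicate 1 and the swapped array were averaged as 1 sample at each stage. With replicate 3 and the swapped array averaged in this way it was 2539.

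**Figure D5:**
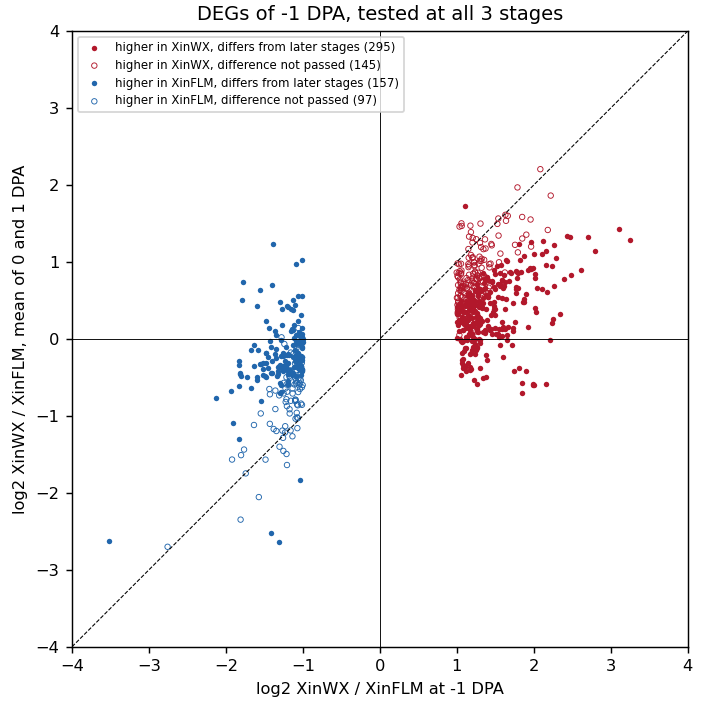
Log2 ratio of XinWX over XinFLM at -1 DPA (horizontal axis) and as the mean of 0 and 1 DPA (vertical axis) for the 440 DEGs higher in XinWX and the 254 higher in XinFLM that were tested at all stages, with equal ratios on the dashed line. Filled points are the 295 and 157 probes whose ratios differed at an FDR under 0.05, and nearly all of them lie on the side of smaller or opposite ratios at the later stages.

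The named probes differed in this respect. For allene oxide synthase the mean ratio changed its sign after -1 DPA. Probe 28K_069_H08 had a mean log2 ratio of -1.19 at -1 DPA, 0.62 (SD 0.12) at 0 DPA and 0.21 (SD 0.58) at 1 DPA, and 28K_156_D09 had -1.20, 0.61 (SD 0.07) and 0.26 (SD 0.45). The ratio at -1 DPA differed from the mean of the later stages by -1.60 (standard error 0.21, adjusted p = 0.000268) for 28K_069_H08 and by -1.63 (standard error 0.23, adjusted p = 0.00042) for 28K_156_D09. The values at 1 DPA lay within 1 SD of 0. Lipoxygenase 28K_275_B02 was on the side of XinFLM at -1 DPA and also at 0 DPA (log2 -0.69, SD 0.15), and on the side of XinWX at 1 DPA (log2 0.61, SD 0.21). Its ratio at -1 DPA differed from that at 1 DPA by -1.61 (adjusted p = 0.00119) and from that at 0 DPA by -0.31 (adjusted p = 0.542).

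The 5 named DEGs higher in XinWX at -1 DPA had positive mean ratios at both later stages. The same held for 334 of the 440 DEGs higher in XinWX that were tested at every stage, so that it is no trait of the named probes. The log2 ratio of the ABC transporter 28K_057_D05 was 1.44 at -1 DPA, 0.44 at 0 DPA and 0.78 at 1 DPA, and its ratio at -1 DPA exceeded the mean of the later stages by 0.83 (standard error 0.14, adjusted p = 0.00164). GH3 probe 28K_086_B03 had ratios of 1.64, 0.68 and 1.39, a difference of 0.61 (standard error 0.17, adjusted p = 0.0402) that did not pass with the replicate number as a block (adjusted p = 0.0568) and in 10 of 18 alternative settings in all. Cystathionine gamma-synthase 28K_167_D03 had 1.42, 0.51 and 1.44, and the difference did not pass (0.45, standard error 0.25, adjusted p = 0.291). All 3 probes had their smallest ratio at 0 DPA. This was not so for lipoxygenase 28K_150_B07, with 1.32, 0.84 and 0.35, which on replicate 3 of 1 DPA had a ratio of -0.43. GH3 probe 28K_236_A10 had 1.06, 0.45 and 0.88. For both of these probes XinFLM was under 400 background-subtracted units on all arrays of 1 DPA, so that the size of the ratio is uncertain there. Sterol 14-demethylase 28K_096_A10 had ratios of 0.96, -0.11 and 0.22, with -1 DPA above the later stages by 0.90 (standard error 0.16, adjusted p = 0.0028).

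For the lipid transfer protein and benzoquinone reductase the larger differences came after -1 DPA. The log2 ratio of the lipid transfer protein 28K_179_F11 was -0.54 at -1 DPA, -1.43 at 0 DPA and -2.73 at 1 DPA, and its ratio at -1 DPA lay above the mean of the later stages by 1.54 (standard error 0.16, adjusted p = 2.773e-05). Benzoquinone reductase 28K_233_A03 had 0.09, -0.90 and -1.91, a difference of 1.49 (standard error 0.17, adjusted p = 7.926e-05). At -1 DPA the lines were thus closer for these genes than at either later stage.

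Of the unnamed probes with the largest ratios, 28K_157_E12 had log2 ratios of 3.25 at -1 DPA, 0.24 at 0 DPA and 2.33 at 1 DPA. Its ratio at -1 DPA exceeded that at 0 DPA by 3.01 (adjusted p = 1.949e-05), and the ratio was large before and after the day of anthesis. Since the probe was chosen for its ratio at -1 DPA, the choice favours such a difference, and the p-value is no independent support. The intensities behind it differed, with 2570, 1130 and 6780 units in XinWX at 1 DPA against 364, 302 and 1410 units in XinFLM. XinFLM was under 400 background-subtracted units on 2 of these 3 arrays. Probe 28K_094_F09 was on the side of XinFLM throughout, with -3.52, -2.30 and -2.96, as was 28K_141_F07, for which XinWX was under 400 background-subtracted units on every array of every stage and no exact ratio is given. The largest changes of the ratio among DEGs of -1 DPA were reversals. The log2 ratio of 28K_130_G06 was 2.16 at -1 DPA, 0.58 at 0 DPA and -1.75 at 1 DPA, and 28K_231_H02 had 2.00, 0.63 and -1.82. Both were at least 4-fold higher in XinWX at -1 DPA and on the side of XinFLM at 1 DPA. In the opposite direction 28K_213_G04 had -1.39, 0.76 and 1.71, and 28K_016_C07 had -1.78, 0.31 and 1.18.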

How the data were processed

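Each array had 30000 spots, of which the probes named in the platform's 28K series were used (29183 after spots of 1 probe were averaged). The deposited scanner files give, for either channel, spot intensity and local background, and a flag score, as the authors' image software wrote them, without normalization. A deposited table gives the authors' normalized log2 ratios. Its direction (Cy5 over Cy3, swap not turned) follows from its correlation with the ratios computed here (r = 0.944 to 0.998), its log2 scale from the slope on them (1.05 to 1.13) and its centring from the array medians (-0.0115 to 0.00949). Tools listed in the submitters' processing notes are R 2.12.2 and limma 3.4.5. No column of per-sample values was left out as belonging to another series.

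Intensities were corrected with normexp (offset 50) and normalized by loess (span 0.3, 4 iterations) in limma 3.58.1 under R 4.3.3, with control spots and spots under 400 units in both channels at weight 0. Ratios were turned to XinWX over XinFLM by the dyes in the labels. All 9 arrays were fitted with 1 coefficient per stage (lmFit, eBayes), with Benjamini-Hochberg adjustment of the p-values over all probes tested at -1 DPA. The contrast of stages came from the same fit. Intensities printed are Aquantile-normalized. Saturated spots, 2 to 11 per channel at -1 DPA, were kept. The fit was tested on simulated data. The number of arrays limits the precision.

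Same-numbered arrays of -1 and 0 DPA deviated together (r = 0.141, 0.261 and 0.129 across probes), and those of -1 and 1 DPA less (0.0305 to 0.0874). Any pairing of same-numbered arrays would rest on these correlations alone, and it was not tested. Replicate 2 was the dye swap at every stage, so that a pairing and an effect of the dyes cannot be told apart. Correlations of arrays with unlike numbers are not given here. The probes named are the 18 with a gene name in the study, and up to 2 per direction with the largest ratio (DEGs of the same sign on 3 arrays) or the largest contrast of stages (DEGs). The members, lists and tests were chosen with earlier results of these data known. Alternatives covered background, filter, normalization, dye, replicate block, averaging, left-out arrays, the authors' ratios and thresholds. Gene lists beyond the 18 probes and GO terms were not analysed here. Primer sequences came from the study's supplementary list. Python 3.11.15 with matplotlib 3.10.9 drew the figures.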

Additional observations from a re-analysis of the deposited data

Results flagged for a closer look

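The ratio of XinWX over XinFLM at -1 DPA differed from the mean of 0 and 1 DPA by the contrast in limma (FDR under 0.05) for 1994 probes. On the log2 scale, a positive difference meaning a ratio nearer to XinWX at -1 DPA, it was -1.60 for allene oxide synthase 28K_069_H08, -1.63 for allene oxide synthase 28K_156_D09 and -0.96 for lipoxygenase 28K_275_B02. The last of these did not pass without replicate 3 of -1 DPA (-0.58, adjusted p = 0.0556).

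The difference was 0.61 for GH3 probe 28K_086_B03, 0.90 for sterol 14-demethylase 28K_096_A10, 0.83 for the ABC transporter 28K_057_D05, 1.54 for the lipid transfer protein 28K_179_F11 and 1.49 for benzoquinone reductase 28K_233_A03. Among probes without a gene name the difference was 1.96 for 28K_157_E12, 1.69 for 28K_256_D01 and -0.89 for 28K_094_F09. The last of these did not pass with scaling between arrays (-0.60, adjusted p = 0.103). These probes were named for the size of their ratio at -1 DPA, a choice that favours such a difference. The difference was 2.75 for 28K_130_G06, 2.60 for 28K_231_H02, -2.62 for 28K_213_G04 and -2.52 for 28K_016_C07, which were named for its size.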

How the results depend on the processing

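The number of DEGs at -1 DPA (769) was between 601 and 918 in the settings that kept the thresholds, with 62.7% higher in XinWX and 55.8% to 67.2% in the alternatives. Each such setting shared 77.9% to 99.7% of the 769 DEGs, and none called a shared probe in the opposite direction. Leaving out 1 array of -1 DPA gave 734 to 886 DEGs, 484 to 494 of them higher in XinWX and 250 to 392 higher in XinFLM, with 6 to 9 of the 18 named probes called and 1113 to 1443 probes whose ratio differed from the later stages (main value 1994). With no fold limit 5741 probes were called, 2993 higher in XinWX and 2748 higher in XinFLM. The count of differing ratios was 687 when the swapped array was averaged with replicate 1 and 2539 when it was averaged with replicate 3. It was 565 with a difference of at least 1 on the log2 scale as well. With the replicate block the counts were 783 DEGs (489 and 294) and 2124 differing ratios, and of the named probes only the stage difference of 28K_086_B03 no longer passed.

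For the steroid dehydrogenase 28K_001_D11 the sign of an uncalled ratio turned with a dye term (-0.0333) and without replicate 1 (-0.0210) or replicate 3 (-0.0068), the range over left-out arrays reaching 0.188. For benzoquinone reductase 28K_233_A03 it turned without replicate 3, in a range from -0.0447 to 0.155. Of the ratios printed above by probe, 477 values under the alternatives kept their call by FDR and fold together, 11 lost it and 1 gained it. Among the stage differences 12 values did not pass. Probes under 2-fold could still cross the FDR alone, as 28K_299_E12 did with 400 units in both channels (adjusted p = 0.0418). Loess within each print block, chosen after seeing the data, gave 753 DEGs and 2490 differing ratios. With 3 arrays, and 2 biological replicates by the methods, small differences and signals near 400 units are the least certain.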

Other observations

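The DEGs of -1 DPA were spread over the array. Between 1.52% and 5.68% of the probes tested were DEGs in each of 48 print blocks, with block medians of the log2 ratio from -0.12 to 0.06. Over the 304 clone plates of the library the number of DEGs per plate was between 0 and 10, with a median of 2.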
